A study of Mus musculus with 2 samples.

Results

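Distal open regions in later introns are stretches of accessible chromatin whose point of highest signal, the summit, lies in intron 2 or a later intron of a protein-coding gene. Overlapping rows of the series-level list of reproducible peaks were merged into regions. A region was kept when its summit lay more than 1 kb from every protein-coding transcription start site (TSS), in no exon and in no gene's first intron. Introns were numbered along the protein-coding transcript of each gene with the longest genomic span. In all, 17284 of 75148 regions (23.0%) met the rule, beside 8975 in first introns, 24405 between genes and 15570 within 1 kb of a TSS.

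Introns of mammalian genes hold many enhancers, short stretches bound by transcription factors that can act on the gene around them or on another gene at a distance. In myeloid progenitors such elements are typically bound by PU.1 (the product of Spi1), members of the C/EBP and RUNX families and AP-1. CTCF, a zinc finger protein that anchors chromatin loops, binds a long asymmetric sequence in nearly every cell type, and the orientation of that sequence decides which way a loop can form. GATA factors drive the erythroid, megakaryocytic and mast cell lineages.

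The assay was ATAC-seq, in which the Tn5 transposase inserts adapters into accessible DNA. The cells were granulocyte monocyte progenitors (GMP) from male adult C57BL/6J mice aged 5 to 6 weeks, with 50000 cells as input to each library. The replicates are separate biosamples with the same donor label, no treatment is named, and 2 sequencer models are named for replicate 1 and none for replicate 2. The study has 1 group and 2 biological replicates, so no condition is compared and no test over samples is possible; counts are given in each replicate's own list, and spread is given as the SD over 20 chromosomes (19 autosomes and X). The files hold peaks and no read counts, so the depth is unknown, and in a bulk sample a site open in few cells and a site weakly open in many cannot be told apart. Replicate 1 had 65423 regions in its own list and replicate 2 had 53686. The cell type label was checked by open promoters, meaning genes with a summit within 1 kb of a protein-coding TSS: 9 of 10 GMP markers were open, Prtn3 being the exception, and 0 of 10 markers of other cells, against 60.9% of all protein-coding genes.

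Sequences of 12 of these regions are printed to show what the letters under a summit look like. They come from genes of blood cells, from the strongest regions with a CTCF match and from hosts of known enhancers. They were chosen after the values were seen. Those in blood-cell genes and those with CTCF are the regions of highest fold in both replicates' lists that carry the pattern named, and those of Gata2 and Nprl3 are the regions of these hosts with the pattern, that of Gata2 being in neither replicate's own list. Each runs from 50 bases before to 50 bases after the summit, 5′ to 3′ on the coding strand of the host gene, from the mm10 (GRCm38) reference. Capitals mark the match to the named pattern or its reverse complement. The patterns are GAGGAAGT for PU.1, TTGCNNAA for C/EBP, TGTGGTT for RUNX, GGAA and GAAA with 2 free bases between them for a joint PU.1 and IRF site, AGATAA for GATA, and for CTCF the words CCA, AG and GGC in that order with 2 free bases between each, each searched on both strands.
Itgam intron 12 (PU.1), chr7:128089283-128089383: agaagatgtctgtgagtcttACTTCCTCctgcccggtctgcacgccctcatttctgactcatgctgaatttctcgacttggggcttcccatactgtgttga
Meis1 intron 8 (PU.1), chr11:18925082-18925182: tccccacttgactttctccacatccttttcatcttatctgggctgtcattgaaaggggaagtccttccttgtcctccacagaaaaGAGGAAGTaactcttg
Dock2 intron 10 (C/EBP), chr11:34707472-34707572: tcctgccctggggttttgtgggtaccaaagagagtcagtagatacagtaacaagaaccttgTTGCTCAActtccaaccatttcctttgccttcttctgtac
Kit intron 5 (C/EBP), chr5:75615802-75615902: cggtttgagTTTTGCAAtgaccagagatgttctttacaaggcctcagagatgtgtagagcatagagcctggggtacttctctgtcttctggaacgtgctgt
Tlr4 intron 2 (RUNX), chr4:66843395-66843495: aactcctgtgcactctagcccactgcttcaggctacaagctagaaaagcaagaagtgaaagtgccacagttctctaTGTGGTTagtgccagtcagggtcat
Foxp1 intron 4 (RUNX), chr6:99199393-99199493: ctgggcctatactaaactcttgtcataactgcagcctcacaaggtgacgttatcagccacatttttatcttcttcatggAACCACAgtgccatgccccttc
Arhgap15 intron 5 (PU.1-IRF), chr2:43862839-43862939: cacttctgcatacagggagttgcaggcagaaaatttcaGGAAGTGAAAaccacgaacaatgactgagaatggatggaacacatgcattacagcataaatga
Tgfbr2 intron 2 (PU.1-IRF), chr9:116145320-116145420: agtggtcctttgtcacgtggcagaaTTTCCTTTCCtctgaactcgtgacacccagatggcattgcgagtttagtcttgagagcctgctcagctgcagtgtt
Exoc1 intron 16 (CTCF), chr5:76565462-76565562: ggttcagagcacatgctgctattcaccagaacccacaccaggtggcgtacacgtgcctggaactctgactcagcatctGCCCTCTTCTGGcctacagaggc
Chl1 intron 9 (CTCF), chr6:103682994-103683094: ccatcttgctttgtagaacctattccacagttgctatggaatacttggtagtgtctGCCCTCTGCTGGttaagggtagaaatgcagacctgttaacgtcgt
Gata2 intron 4 (GATA), chr6:88203172-88203272: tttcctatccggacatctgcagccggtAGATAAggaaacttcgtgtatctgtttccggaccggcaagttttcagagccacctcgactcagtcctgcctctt
Nprl3 intron 8 (C/EBP), chr11:32238603-32238703: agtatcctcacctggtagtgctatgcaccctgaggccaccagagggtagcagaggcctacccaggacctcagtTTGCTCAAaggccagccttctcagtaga

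The fold of a region is the value the authors' deposited list gives its strongest peak, and values of different lists are set side by side only as a description. The Itgam region, in the gene of the myeloid integrin CD11b, had a fold of 15.9 (17.3 in replicate 1 and 11.2 in replicate 2) and lay 26.7 kb from the host's start. The Tlr4 region had a fold of 17.7 (16.7 and 15.8). Tlr4 encodes the receptor for bacterial lipopolysaccharide. The Meis1 region reached 14.3 (14.0 and 13.3), in the gene of a homeobox factor of stem and progenitor cells. The CTCF examples, chosen from all hosts and not from blood-cell genes alone, had 21.3 in Exoc1 (22.4 and 16.1) and 19.7 in Chl1 (19.7 and 14.1). Both carried the match on the strand opposite to the host. Among all hosts, the region with the PU.1 pattern in Eea1 had 24.7. The median fold was 8.09 for regions with the CTCF pattern and 8.52 for those with the PU.1 pattern.

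With chromosome Y, later introns cover 649 Mb, or 24.5% of the mapped letters of the genome. Over the 20 chromosomes without Y they held 26.7 regions per Mb (SD over chromosomes 4.42). First introns held 39.7 per Mb (SD 5.33) and DNA between genes 18.3 (SD 4.21). The density in later introns ran from 10.5 per Mb on chromosome X to 33.1 on chromosome 17. First introns were denser than later ones 1.49-fold, on 20 of 20 chromosomes, and later introns denser than intergenic DNA 1.46-fold, also on 20 of 20. In the replicates' own lists the first ratio was 1.42 and 1.52 and the second 1.45 and 1.41.

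Both ratios changed with distance from the nearest protein-coding TSS. Between 1 and 2.5 kb from a TSS, later introns held 43.3 regions per Mb, first introns 64.5 and intergenic DNA 44.8. At 25 to 50 kb the values were 30.0, 31.6 and 28.8. Beyond 100 kb they fell to 11.7, 11 and 5.91. The ratio of first to later introns thus went from 1.49 to 0.94 across the distances, and in the replicates' own lists from 1.32 to 0.96 and from 1.38 to 0.97. The ratio of later introns to intergenic DNA lay between 0.91 and 1.14 at every distance up to 100 kb and was 1.98 beyond it, against 1.94 and 1.93 in the replicates. Up to 25 kb from a TSS, in the list of both replicates, later introns were therefore no denser than intergenic DNA at the same distance. The DNA counted by distance includes chromosome Y, whose intergenic DNA held 0.137 regions per Mb. Ratios without Y, including that of 1.98 beyond 100 kb, were not computed.

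**Figure D1:**
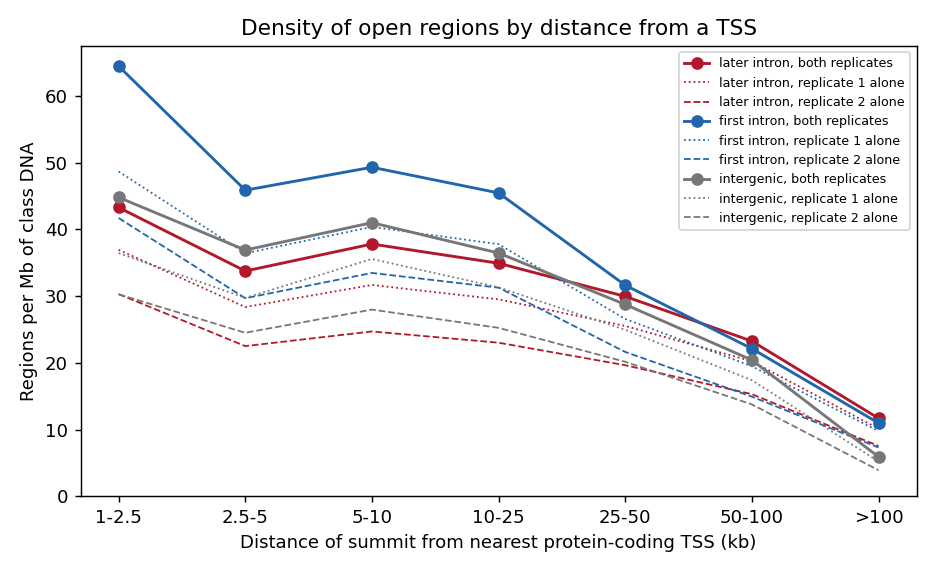
Regions per Mb of DNA of each class (y axis) against the distance of the summit from the nearest protein-coding TSS in kb (x axis); solid lines with points are the list of both replicates, dotted and dashed lines each replicate's own list. First introns lie above later introns up to 50 kb, and beyond 100 kb later introns hold 11.7 regions per Mb against 5.91 between genes. DNA of chromosome Y is counted here, and its regions are not.

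Intron 2 alone held 4313 of the regions (25%), at 30.4 per Mb. Density was 27.8 per Mb in intron 3, 27.4 in intron 4, 24.9 in intron 5, 26.1 in introns 6 to 10, 24.4 in introns 11 to 20 and 21 beyond intron 20. The median distance from the nearest TSS rose over the same steps from 15.8 to 34.2 kb. Shorter introns were denser, from 36.7 regions per Mb in later introns of at most 1 kb to 12.5 in those over 100 kb, and within every class of length first introns exceeded later ones, by 1.5 to 2.49-fold. The highest of these ratios rests on 12 first-intron regions.

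Over 10 equal steps along an intron's length the density stayed between 25.1 and 27.9 per Mb. Within 100 bases of the donor splice site it was 37.0 per Mb and within 100 bases of the acceptor 31.7. From 100 to 2500 bases it lay between 30.8 and 33.3 from the donor and between 30.3 and 32.9 from the acceptor. The acceptor value was thus within the range of the steps beyond it. Further than 2500 bases it was 24.3 counted from the donor and 24.3 counted from the acceptor. The last intron of a gene held 1805 regions (10.4%), at 28.4 per Mb against 26.4 in the other later introns.

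The regions lay in 6276 host genes of 17457 genes with later-intron DNA (36% of genes tested). Of the hosts, 3060 held 1 region, 967 at least 5 and 41 at least 20, and 405 single introns held 5 or more. Hosts were longer, with a median of 30.8 kb of later-intron DNA against 6.23 kb in other genes. The number of regions per gene and the amount of later-intron DNA had a Spearman correlation of 0.55 across the 17457 genes, which are not independent replicates. Genes with more DNA thus tended to hold more regions, though not always. Dmd held 0 in 2.04 Mb of later-intron DNA and Etv6 held 33 in 0.191 Mb.

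By count, Fgfr2 led with 83, but its longest annotated transcript spans 2.96 Mb and runs over 30 other protein-coding genes. Only 40 of those regions have Fgfr2 as the host with the shortest intron, and 39 of these 40 are nearest to the TSS of another gene. Pde4d, a cyclic AMP phosphodiesterase, had 54, of which 40 in its intron 3. Zfhx3, a large zinc finger factor, had 41. Foxp1, a forkhead repressor of blood and other tissues, had 39, and Wwox had 36. Etv6, an ETS repressor needed by blood stem cells, and Arid1b, a subunit of the BAF remodelling complex, had 33 each. Asap1 had 31, Nav2 30 and Sgms1 28. Between 17 and 52 regions of each of these 10 genes were in both replicates' own lists.

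Ranked by density among hosts of at least 5 regions, the order was different. Fabp12 had 464 regions per Mb of its later-intron DNA (6 regions) and Dram1 360 (6 regions). Eif1a, Ildr1, Cnnm2 and Amz2 followed at 350, 345, 305 and 305 per Mb. Next came 4 signalling genes, the kinase gene Mapkapk3 with 299 per Mb (8 regions), the receptor-associated kinase gene Irak2 with 298 (12 regions), Csk with 297 (5 regions) and Nod1, an intracellular sensor of bacterial peptidoglycan, with 289 (6 regions). Of the 10, Ildr1 alone had no open promoter.

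Genes of blood-cell regulators were dense hosts. Of all genes with later-intron DNA, 36.0% were hosts. That share rose with later-intron length, from 4.90% in the shortest quintile to 72.9% in the longest, which starts at 42.0 kb. Among genes with an open promoter, density fell with later-intron length, from 46.7 per Mb in the shortest quintile to 30.0 in the longest. The gene lists that follow were not matched for length or for open promoters. Of 32 transcription regulators of myeloid and haematopoietic cells with later-intron DNA, 28 were hosts, and their median was 51.0 kb of such DNA. The pooled density of all genes was exceeded by 26 of the 32, against 29.1% of all genes with later-intron DNA. Together they held 284 regions at 80.3 per Mb, and 69.0 and 57.4 per Mb in the replicates' own lists. All genes pooled held 26.7, and 22.8 and 17.6 in the replicates' lists. The leading hosts were Foxp1 with 39, Etv6 with 33, Bach2, a repressor of myeloid genes in lymphoid cells, with 22 and Zmiz1, a transcriptional coregulator, with 21. No region was found in the later introns of Ets1, Irf5, Mecom or Stat3.

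Receptor genes of myeloid cells came next. Of 18, 13 were hosts, with 39 regions at 64.0 per Mb (49.2 and 44.3 in the replicates). Their median later-intron DNA was 17.8 kb, and open-promoter genes with 17.6 to 42.0 kb held 39.0 regions per Mb. Tgfbr2, a subunit of the TGF-beta receptor, held 11, the fractalkine receptor gene Cx3cr1 8, Flt3, the receptor of a progenitor growth factor, 5, and Il1rap, the shared chain of the interleukin 1 receptor, 4. Csf2ra, Ifnar1, Il10ra, Il3ra and Tnfrsf1b held none, but Csf2ra had only 0.00024 Mb of later-intron DNA under the rule. Granule and effector genes are mostly short: 7 of 17 were hosts, with 20 regions at 62.0 per Mb (46.5 and 34.1), and 106 per Mb without F13a1, the longest of them. Cybb, the catalytic subunit of the phagocyte oxidase, held 6, F13a1 4, Itgam 3 and Ltf (lactoferrin) 3. The compact genes Mpo, Elane, Ctsg, Prtn3, Lyz2, Camp, Lcn2, Mmp8, Ms4a3 and Ngp held none, and the median granule gene had 5.24 kb of later-intron DNA.

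Signalling and adhesion genes of leukocytes were hosts in 26 of 30 cases, with 145 regions at 47.5 per Mb (38.9 and 32.1 in the replicates). Elmo1, an adaptor for Rac activation, held 18, Prkcb, a protein kinase C, 15 and the phospholipase gene Plcg2 11. Genes without a region included Itgal, Rasgrp2 and Was. Chromatin regulators mutated in leukaemia were hosts in 12 of 23 cases, with 67 regions at 37.0 per Mb (33.6 and 24.8). Of these 67, 33 lay in Arid1b, 7 in the DNA methyltransferase gene Dnmt3a and 4 in Kdm6a. Arid1b had 0.295 of the list's 1.81 Mb, and the median gene of the list had 9.17 regions per Mb. The pooled density without Arid1b was not computed. Asxl1, Bcor, Crebbp, Ctcf, Ezh2, Kmt2a, Kmt2d, Ncor1, Rad21, Setd2 and Tet2 held none.

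Genes of other lineages ranged widely. Genes of erythroid, megakaryocytic and mast cells had 35 regions at 55.2 per Mb (44.1 and 34.7 in the replicates), in 12 of 20 genes. Bcl11a alone held 12 of them and Vwf 6. B and T cell genes had 44 regions at 25.7 per Mb (21 and 12.8), in 15 of 20 genes, and 47.7% of these regions were in both replicates. Of the promoters, 9 of 20 in the B and T cell list and 13 of 21 in the erythroid list were open, and the part of other cells in the sample was not tested. Muscle and hepatocyte genes had 33 regions at 7.98 per Mb (6.28 and 4.83), in 13 of 20 genes, and 9 of the 20 exceeded the pooled density of all genes. This low pooled value rests on the dystrophin gene Dmd, which held 0 regions in 2.04 of the list's 4.14 Mb, and it was 15.7 per Mb without Dmd. In the B and T cell list the value was 30.7 per Mb without Ebf1, which moved it above that of all genes. Long neural genes had 90 regions at 4.57 per Mb (4.11 and 2.99), in 10 of 20 genes, over a median of 1003 kb of later-intron DNA per gene. Broadly expressed long genes also lay below the pooled value, with 17 regions in 8 of 22 genes at 11 per Mb (10.4 and 8.43), while the promoters of 22 of 22 were open. Of the marker genes used to check the label, 3 of 9 GMP markers with later-intron DNA were hosts, with 4 regions, and 1 of 7 markers of other cells, with 1 region in neither replicate's own list.

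**Figure D2:**
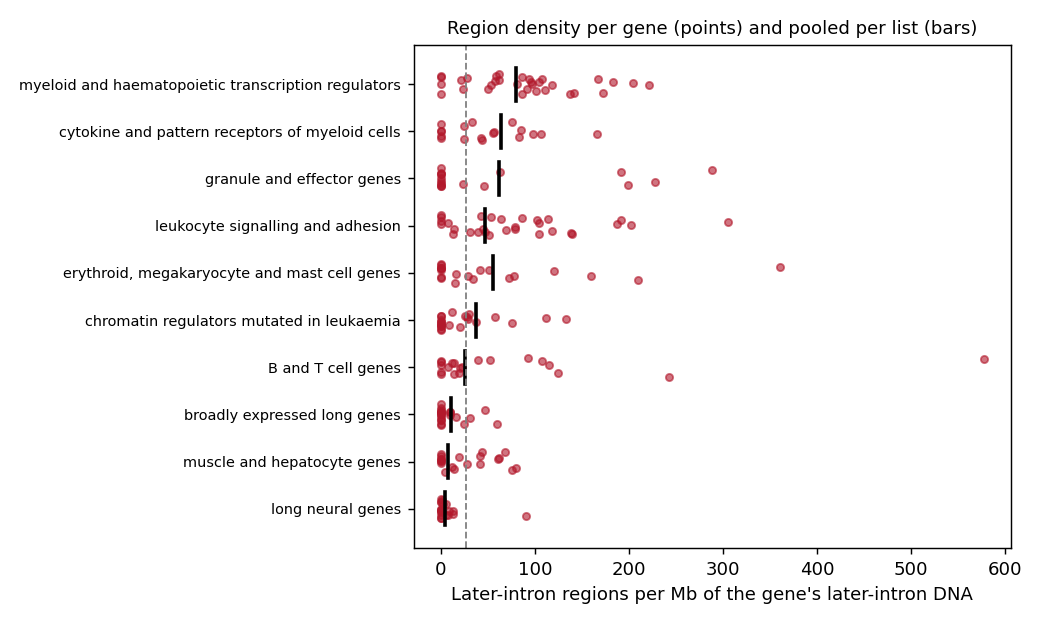
Later-intron regions per Mb of each gene's later-intron DNA (x axis) for the genes of 10 lists (y axis); each point is a gene, the black bar is the list pooled and the dashed line all genes pooled (26.7). The regulators of blood cells, pooled at 80.3, lie mostly to the right of the line, and the long neural genes, pooled at 4.57, mostly to the left.

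Hosts had open promoters more often than other genes. A summit within 1 kb of a protein-coding TSS was found in 4961 of 6276 hosts (79.0%) and in 61.3% of the other genes with later-intron DNA. Hosts are longer, so the comparison was repeated within quintiles of later-intron length: the shares were 60.2% against 54.9% in the shortest quintile and 79.8% against 56.3% in the longest. Genes with an open promoter held 32.7 later-intron regions per Mb and those without 13.9, and in the longest quintile 30.0 and 10.2. In the 5 quintiles the share was higher in hosts each time.

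The host is not always the gene with the nearest start. For 3875 regions (22.4%) the nearest protein-coding TSS belonged to a gene that was no host, against 21.5% of all later-intron DNA. The median distance was 55.3 kb to the start of the host transcript and 22.9 kb to the nearest TSS. Among these pairs, named after their counts were seen, Ldlrad4 held 19 regions nearest to Fam210a, Hecw2 held 18 nearest to the kinase gene Stk17b, and Arid1b 18 nearest to Ldhal6b. Smad7, an inhibitor of TGF-beta signalling, was the nearest gene for 13 regions in Dym and 10 in Ctif. The transcription factor gene Maf was nearest to 11 regions in Wwox, at 396 to 597 kb.

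Later introns can also hold starts of non-coding transcripts, which the rule does not remove. Such a start lay within 1 kb of 1238 summits (7.16%), at 45.5 regions per Mb of this DNA against 25.8 elsewhere. For 904 of them it was the start of a non-coding transcript of a protein-coding gene.

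Of the 5 hosts of known intronic enhancers, each held at least 1 region, against 36.0% of all genes with later-intron DNA. In each replicate's own list 3 of the 5 held a region. Their median later-intron DNA was 25.8 kb, and 50.1% of genes with 17.6 to 42.0 kb held a region. Any later-intron region was counted, and overlap with the known enhancers was not tested. Bcl11a, a repressor of foetal globin whose intron 2 holds an erythroid enhancer, had 12, each in intron 2 between 21.3 and 74.2 kb from the start. Folds ran from 2.97 to 10.9, and 5 of the 12 were in both replicates' own lists. Nprl3, whose introns hold enhancers of the neighbouring alpha-globin genes, had 2. The region in intron 8 had a fold of 13.1 (14.2 and 10.8) and that in intron 6 of 8.71, in replicate 1 only (10.4).

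Gata2 encodes a factor of stem cells and mast cells, and its known intronic enhancer joins an E-box to a GATA site. The single Gata2 region lay in intron 4, 9.33 kb from the start, with a fold of 4.53, and was in neither replicate's own list. Its printed sequence holds CATCTG 8 bases before AGATAA. The same pair of words at the same spacing, searched on both strands, had 206 matches in later-intron DNA, of which 7 were inside these regions. It lay within 50 bases of the summit in 2 regions, in Gata2 and Spns2. This pattern was chosen after the sequence was seen.

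Csf1r, the receptor of the macrophage growth factor, had a single later-intron region, in intron 14, with a fold of 3.70 and in neither replicate's own list. Its first intron held summits at 1.90 kb (fold 4.18) and 2.82 kb (fold 8.11) from the start, both in both replicates. Lmbr1, whose intron holds the limb enhancer of a distant gene, had 2 regions, at folds of 9.12 in intron 8 and 6.72 in intron 5. Of the 18 regions in the 5 hosts, 38.9% were in both replicates, against 60.5% of all later-intron regions.

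The 10 regions of highest fold in both replicates were in genes of mixed function. Gnb1l held the highest, at 34.97 (36.4 in replicate 1 and 26.8 in replicate 2), over 269 bases in its intron 2. Peak1 followed at 27.3, Erich1 at 26.3, the early endosome tether gene Eea1 at 24.7 and the calpain inhibitor gene Cast at 24.6. Smim17, Inpp4b, Antxr2, Cpne4 and Adgb lay between 22.7 and 23.7. The regions in Eea1, Cast and Antxr2 had the PU.1 pattern, and those in Gnb1l, Peak1, Erich1 and Inpp4b had none of the 20 patterns searched. In each of the 10 the fold was higher in replicate 1 than in replicate 2.

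Motif patterns were counted within 50 bases of the summit and in windows of the same length 500 bases to each side. CTCF and PU.1 had the highest log2 ratios among patterns found at 100 or more summits. The CTCF pattern lay at 10.6% of the summits (1830 regions) and in 0.616% of the flanks, or 4.10 as a log2 ratio (chromosome SD 0.43). The PU.1 pattern lay at 8.95% (1547 regions) against 0.538% (log2 4.06, SD 0.46). The PU.1-IRF pattern lay at 3.76% against 1.02% (log2 1.88, SD 0.57).

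RUNX was found at 7.49% of summits against 2.56% of flanks (log2 1.55, SD 0.18) and C/EBP at 10.4% against 3.99% (log2 1.38, SD 0.19). The AP-1 pattern TGANTCA lay at 6.2% against 2.95% (log2 1.07, SD 0.13) and the E-box CAGCTG at 7.97% against 4.95% (log2 0.69, SD 0.21). Each of these 7 patterns was above its flanks on 20 of 20 chromosomes. GATA was lower at summits, 3.52% against 5.44% (log2 -0.63, SD 0.31), and was above its flanks on 0 of 20. Mean GC content was 50.8% at summits and 45.1% in flanks, and the pattern ratios were not adjusted for it. Of the regions, 8221 (47.6%) had none of the 20 patterns.

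The other 12 patterns were rarer. The ETS word CCGGAAGT lay at 0.359% of summits and 0.0868% of flanks (log2 2.05, SD 1.16), the CRE TGACGTCA at 0.312% and 0.0665% (log2 2.23, SD 1.17), and the KLF/SP word GGGGCGGGG at 0.735% and 0.263% (log2 1.48, SD 1.07). The IRF pattern (2 GAAA words with 2 free bases between them) was found at 1.73% and 1.43% and the MYB pattern AACNGTT at 1.92% and 1.79%, with SDs over chromosomes larger than their log2 ratios. The TCF7/LEF1 word ATCAAAG was lower at summits, 0.914% against 1.46%. NF-kB, EBF, HNF4, NRF1, NFI and YY1 patterns were at 21 regions or fewer each. At promoters the CTCF pattern lay at 2.59% of summits and the PU.1 pattern at 3.01%.

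**Figure D3:**
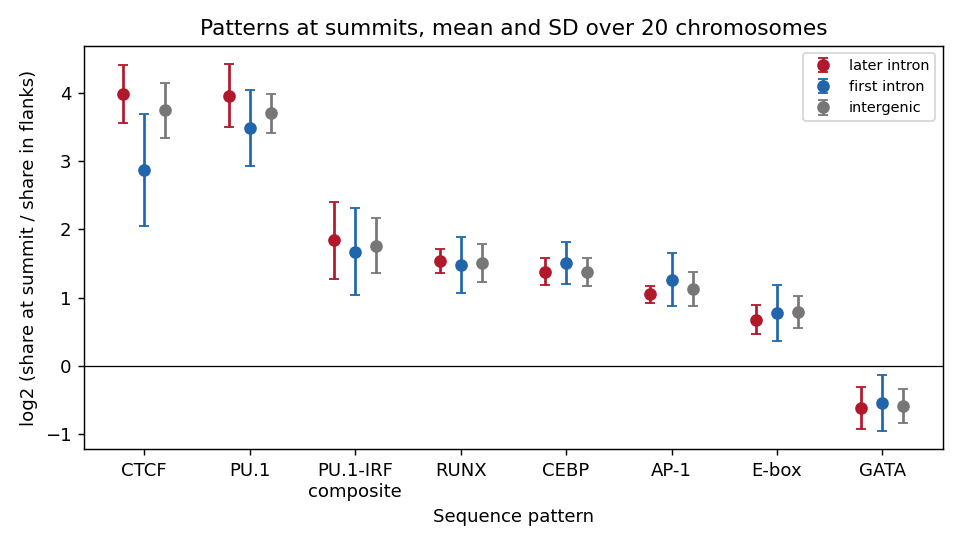
Log2 ratio of the share of summits with a pattern to the share of flanking windows (y axis) for 8 patterns (x axis); points are means and bars SDs over 20 chromosomes, for later introns, first introns and intergenic regions. The 3 classes lie close together for RUNX, C/EBP and GATA, and the CTCF ratio is lower in first introns.

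The CTCF share separated later introns from first introns, while the other main patterns did not. It was 10.6% in later introns, 5.73% in first introns and 11% between genes. Later introns were higher than first introns on 20 of 20 chromosomes, with means over chromosomes of 10.4% (SD 1.56) and 5.63% (SD 1.07). The replicates' own lists gave 10.4% against 5.17% and 8.64% against 4.33%. PU.1 shares were 8.95% and 8.94%, with later introns higher on 10 of 20 chromosomes, and for C/EBP (10.4% and 11.1%) and RUNX (7.49% and 7.82%) they were higher on 7 and 10.

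Distance from a TSS did not remove the CTCF difference up to 100 kb. At 1 to 5 kb the CTCF share was 10.4% in later introns and 5.96% in first introns, at 5 to 10 kb 13.6% and 5.30%, and at 50 to 100 kb 9.26% and 5.71%. Beyond 100 kb it was 7.25% and 7.60%, the latter from 20 of 263 first-intron regions. Per Mb of DNA, chromosome Y included, regions with the CTCF pattern numbered 2.82 in later introns, 2.27 in first introns and 1.89 between genes. Regions with the PU.1 pattern numbered 2.38, 3.54 and 1.49, so the higher density of first introns held for PU.1 and not for CTCF.

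The CTCF share also rose with the number of the intron. It was 6.49% in intron 2, 8.93% in intron 3, 10.6% in introns 4 to 5, 13.5% in introns 6 to 10 and 13.6% beyond intron 10. In the own list of replicate 1 it went from 6.23% to 13.6% over these steps, and in that of replicate 2 from 5.33% to 10.7%, with 11.5% in introns 6 to 10. PU.1 shares lay between 8.32% and 9.62% with no order, and between 8.29% and 10.2% in the replicates' own lists. Intron 2, in this respect, stood nearer to first introns than to the later ones.

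**Figure D4:**
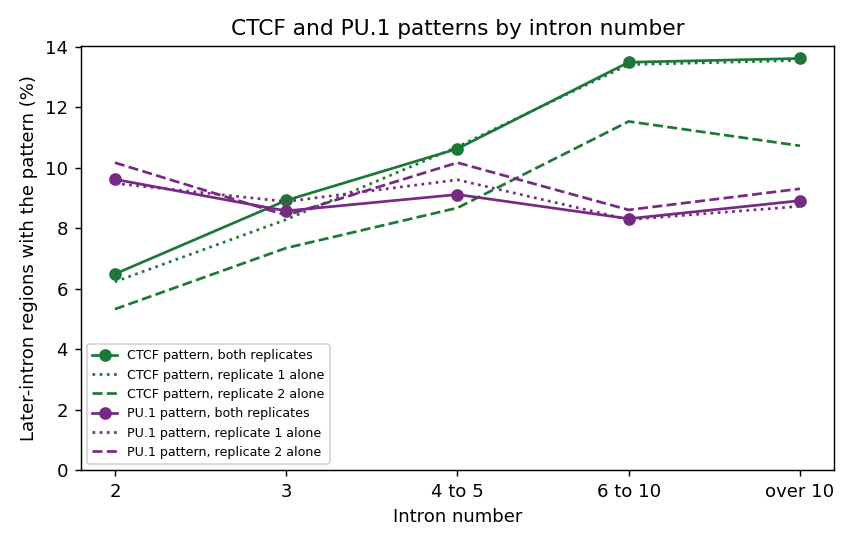
Share of later-intron regions with the CTCF or the PU.1 pattern within 50 bases of the summit (y axis, %) against intron number (x axis), for the list of both replicates and each replicate's own list. In the list of both replicates the CTCF share rises from 6.49% in intron 2 to 13.6% beyond intron 10, and the PU.1 share lies between 8.32% and 9.62%.

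CTCF and PU.1 patterns met in 16 regions. PU.1 lay in 0.874% of the regions with CTCF, against 8.95% of all later-intron regions, and CTCF in 1.03% of those with PU.1, against 10.6% of all. C/EBP lay in 6.53% of the regions with PU.1, also below its share of 10.4% in all. Regions with 1 of the PU.1, C/EBP and RUNX patterns numbered 4055, with a median fold of 8.30, those with 2 numbered 287 (median 9.15) and those with all 3 numbered 4. The PU.1 share rose with fold, from 7.17% in the lowest quintile to 11.7% in the highest, while the CTCF share was highest in the middle quintile, at 13%.

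Most matches in later-intron DNA were not in a region of this list. The CTCF pattern had 41673 matches in later-intron DNA, of which 5.74% lay in open regions of any class. For PU.1 the share was 7.07% of 38437 matches, against 10.2% in first introns and 4.28% between genes. For RUNX it was 2.20%, for C/EBP 1.81% and for GATA 0.879%.

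The strand of a match was compared with that of the host gene. Of 1798 regions with CTCF matches on 1 strand only, 800 (44.5%, Wilson 95% interval 42.2 to 46.8, counting error only) had it on the coding strand, and the share was below 50% on 17 of 20 chromosomes. Over all CTCF matches in later-intron DNA the coding share was 52.8%, and over those of them inside open regions of any class 45.6%. First introns gave 54.5% over all matches and 46.0% over those inside regions. Matches in accessible DNA thus lay more often on the strand opposite to the gene than the DNA around them.

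RUNX matches lay on the coding strand in 787 of 1266 regions (62.2%, interval 59.5 to 64.8), on 19 of 20 chromosomes in the majority. All RUNX matches in later-intron DNA were on that strand in 59.1%, and those of them inside open regions of any class in 60.7%. For PU.1 the coding share was 50.6% at summits and 48.2% in the DNA, and for C/EBP 48.4% and 50.1%.

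Of the 17284 regions, 10458 (60.5%) overlapped a region in both replicates' own lists, against 66.1% of regions of all kinds. First introns (60.7%) and intergenic regions (62.8%) were close to that value, and promoters had 83.1%. Replicate 1's list held 79.4% of the later-intron regions and replicate 2's 64.2%. A further 2922 (16.9%) were in neither list, and 2492 of these were in both replicates' looser lists. Across the 10458 shared regions the replicates' folds had a Spearman correlation of 0.86, with replicate 1 higher in 93.7%.

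Sharing followed fold closely. It was 17.6% below a fold of 5, 35.4% from 5 to 7.5, 69.0% from 7.5 to 10, 95.6% from 10 to 15 and 99.9% from 15 up. Between folds of 5 and 7.5 first-intron regions were shared more often, at 49.3%. The median fold of later-intron regions was 8.01 (quartiles 6.21 and 10.4), against 7.08 in first introns, 8.20 between genes and 8.98 at promoters. Their median width was 430 bases.

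Regions with the CTCF pattern were narrower, with a median of 311 bases, and were in both replicates less often, at 50.1% against 61.7% of the rest. The gap was present in each quintile of fold, from 14.1% against 22.5% in the lowest to 96.7% against 98.3% in the highest, and was widest in the second, at 21.4% against 38.8%. Regions with the C/EBP pattern were shared more often than the rest in the 3 lower quintiles, at 25.8% against 21.3% in the lowest, 45.5% against 36.1% in the second and 69.6% against 59.1% in the third. In the fourth and highest quintiles the shares were close, at 86.6% against 85.4% and 98.4% against 98.1%. The part of width or of depth in these differences was not tested.

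**Figure D5:**
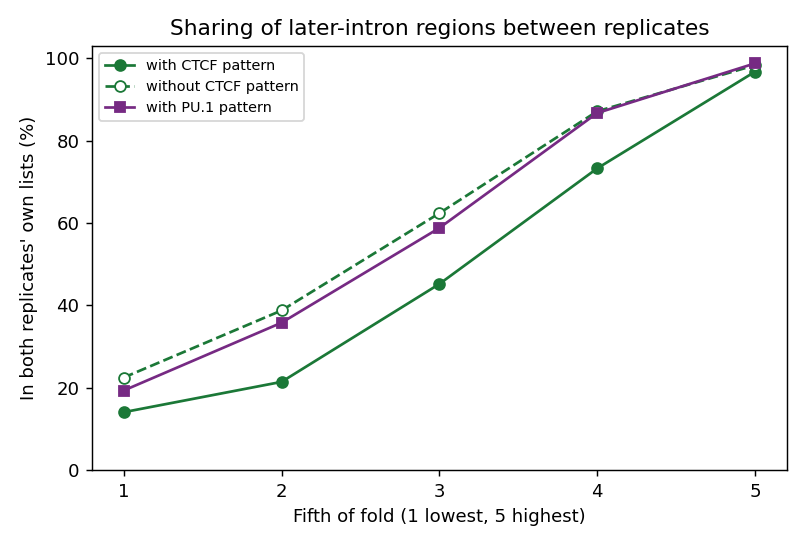
Share of later-intron regions found in both replicates' own lists (y axis, %) by quintile of fold (x axis, 1 lowest to 5 highest), for regions with and without the CTCF pattern and with the PU.1 pattern. Regions with the CTCF pattern lie below those without it in each quintile, by the most in the second (21.4% against 38.8%).

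The base composition at the summits did not set later introns apart. The median GC content within 50 bases of the summit was 50.5% in later introns, first introns and intergenic regions alike, against 45.5% in the flanks of later-intron regions. At least 5 CpG dinucleotides were found in 4.76% of later-intron summits, 5.68% of first-intron and 8.66% of intergenic summits, and in 70.3% at promoters. Summits lay in soft-masked repeats in 1823 regions (10.5%), while 29.3% of later-intron DNA is masked. The masked regions had the CTCF pattern in 17.0% and the PU.1 pattern in 12%, against 9.83% and 8.60% of the others, and the C/EBP pattern in 7.30% against 10.8%.

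At the edge of the rule, 166 later-intron regions lay at most 250 bases beyond the limit of 1 kb from a TSS, with a median fold of 6.11. In later introns, 160 regions lay at most 250 bases inside that limit and were therefore left out, with a median fold of 6.19.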

How the data were processed

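The data are ATAC-seq peak lists of granulocyte monocyte progenitors, 2 biological replicates of 1 group. The deposited lists give peaks with a summit and the authors' fold value, a ratio whose denominator the files do not state; the sources used here do not give the aligner, peak caller or read depth, and the peaks are on mm10. The series-level conservative list thresholded on the irreproducible discovery rate was used, with each replicate's own thresholded list and the looser lists beside it. Rows overlapping by at least 1 base were merged, keeping the summit of highest fold, and summits were classified with GENCODE release M21. The first densities given for each class, their ratios and SDs were taken over the 20 chromosomes, without Y. Total Mb of DNA includes Y, as do densities by distance, intron number, intron length and place in the intron. Gene densities and pattern values per Mb include it too. In the replicates' densities by distance, DNA of Y was counted and its regions were not. Patterns were searched on both strands within 50 bases of the summit and 500 bases to each side. Sharing means an overlap of at least 1 base. Intervals are Wilson 95% intervals and cover counting error only.

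Named are the 10 hosts with the most regions, the 10 densest with at least 5, the 10 regions of highest fold in both replicates, up to 4 hosts and the genes with none in each gene list, and each region in hosts of known intronic enhancers. The regions and lists were chosen with earlier results of these data known. Some genes that this rule names are not reported here. The lists are hand-made, and a region in introns of several genes (211 regions) counts for each in per-gene counts. Python 3.11.15, NumPy 2.4.6, pandas 2.3.3, SciPy 1.17.1 and matplotlib 3.10.9 were used, and the scripts were tested on simulated data.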

Additional observations from a re-analysis of the deposited data

How the results depend on the processing

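No paired analysis was possible because the study has 1 group only. Regions are peaks past a threshold, so every number of regions, and every comparison of what is absent, is limited by an unknown depth. Each alternative changed 1 choice. Leaving out the gene with the most DNA in each gene list was chosen after seeing the data, and it moved the pooled density by over 1.5 times in the lists of granule genes, of muscle and hepatocyte genes, of known enhancer hosts (73.1 to 132 per Mb without Lmbr1) and of markers of other cells (11 to 26.1 per Mb without Ins2). Sharing between replicates has no value when a replicate is left out. Of the values below, the coding share of PU.1 matches crossed 50%, and no other changed side.

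The number of regions was 11381 to 14721 in a single replicate's list, 30825 in the looser list and 8516 when only regions at or above the median fold were kept, and their density per Mb was 17.6 to 22.8, 47.6 and 13.2. The ratio of first to later introns was 1.42 to 1.52 with a replicate left out, 1.12 for the regions at or above the median fold, 1.65 for regions free of exons, 1.41 beyond 2500 bases from a TSS and 1.37 with first introns of genes of every type left out. The median fold was 7.61 to 9.14 in a single replicate, 5.75 in the looser list and 10.5 in the stricter one. The share of regions nearest to another gene was 21.7% to 22.6% in a single replicate, 23.2% in the stricter list, 21.6% free of exons and 23.3% beyond 2500 bases. The share of hosts with an open promoter was 74.2% to 76.7%, 86.1% in the looser list, 57.4% in the stricter list, where promoters also need the higher fold, and 83.4% with 2500 bases. Sharing was 34.0% in the looser list, 86.9% in the stricter one and 59.6% free of exons. Median GC was 50.5% to 51.5% in a single replicate.

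The log2 ratio of CTCF was 3.82 to 4.13 in a single replicate, 3.82 in the looser list, 3.05 with a window of 100 bases and 3.79 with flanks at 1000 bases. That of PU.1 was 3.82 in the looser list, 4.32 in the stricter one, 4.11 free of exons, 3.33 with the wider window and 3.83 with the farther flanks. That of C/EBP was 1.42 to 1.53 in a single replicate, then 1.28, 1.5, 1.03 and 1.47 in the looser list, the stricter list, the wider window and the farther flanks. That of RUNX was 1.36 in the looser list, 1.64 in the stricter one and 1.20 with the wider window. The coding share of CTCF matches was 42.1% to 43.5% in a single replicate, 45.5% in the looser list and 43.3% in the stricter one. The coding share of PU.1 matches, 50.6%, crossed to 49.7% in the looser list and 49.8% beyond 2500 bases. The cause of these changes was not tested.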
